A study of Mus musculus with 26 samples.

Results

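Neat1, Malat1 and 4 proteins that bind them or their nuclear bodies (Sfpq, Nono, Pspc1 and Tardbp) were followed through heat, oxidative and osmotic stress in NIH3T3 cells, an established line of mouse fibroblasts. The genes were taken by symbol and were 6 of the 20430 symbols in the RNA tables. Their 4 protein-coding members were also among the 19941 symbols of the ribosome footprint tables. The set was chosen by the low Neat1 RNA value after 2 h of KCl, which had been seen first. For that reason every Neat1 value that rests on those libraries or on their control is given as a description, with no test. PolyA-selected RNA was sequenced in 16 libraries and ribosome footprints, the mRNA pieces covered by ribosomes, in 10 libraries, with 2 replicates in each of 13 groups. The heat experiment held a control, cells at 44 °C for 2 h and cells at 42 °C for 8 h. The other experiment held a control shared by H2O2 and KCl, cells given H2O2 for 2 h or 7 h, and cells given KCl for 2 h or 7 h, and the footprint libraries used here belong to it. All groups were cells of this single line, for which the labels name no genetic change, and the labels used here give no doses.

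Neat1 is the long noncoding RNA on which paraspeckles, small bodies in the nucleus, are built. The gene makes a short polyadenylated transcript and a long transcript, and the long one is the scaffold of the body. SFPQ, NONO and PSPC1 are RNA-binding proteins of the DBHS family that pair with each other and coat this scaffold, and TDP-43, encoded by Tardbp, binds Neat1 and takes part in the choice between its transcripts. Malat1 is the neighbouring long noncoding RNA and collects in nuclear speckles, where splicing factors are stored. PolyA selection favours RNA with a polyA tail, and the long Neat1 transcript ends without one. The part of Malat1 or Neat1 RNA lost at this step was not measured. Their levels below are those in polyA-selected RNA.

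RNA libraries held 24441877 to 45244430 expected counts and footprint libraries 1460751 to 5168537, so footprint values are less precise. The labels do not say whether the replicates were separate cultures, so the p-values measure only the spread between these libraries. All 7 fibroblast markers examined were present in every RNA library (Vim at 1780 to 4400 TPM, Col1a1 at 694 to 2830 TPM). Of 6 markers of other cell types, Tubb3, a neuronal tubulin, reached 32.7 TPM, and the other 5 together reached 4.03 TPM at most. Ptprc (leukocytes) and Myod1 (muscle) did not exceed 0.05 TPM. Tubb3 moved with treatment: it lay at 14.4 and 14.6 TPM in the H2O2/KCl control, at 32.7 and 31.4 TPM after 7 h of H2O2 and at 3.11 and 3.25 TPM after 7 h of KCl. Its part in the results below was not tested. Thy1, a fibroblast surface marker, lay at 55.2 to 64.2 TPM in the heat libraries and at 7.6 to 14.3 TPM in the others, so levels were not compared between the experiments.

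In RefSeq (GRCm38.p6, the release of the mm10 build) Malat1 and Neat1 lie side by side on chromosome 19. Malat1 spans chr19:5795690-5802672, with 1 transcript of 6983 bases and no intron. Neat1 spans chr19:5824708-5845480, a length of 20773 bases, with 2 transcripts. The stretch between them is 22035 bases long. Sfpq (chr4:127020716-127051101) and Tardbp (chr4:148612382-148627084) are on chromosome 4, Nono (chrX:101429560-101448593) on the X chromosome and Pspc1 (chr14:56722441-56778318) on chromosome 14.

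Levels of different genes were compared per length, in TPM. In the unstressed cells of each experiment Neat1 was the highest of the 6 genes and Pspc1 the lowest. The control libraries of the H2O2/KCl experiment held Neat1 at 651 and 736 TPM, Nono at 495 and 504 TPM and Sfpq at 217 and 242 TPM. Tardbp lay at 180.4 and 185 TPM, Malat1 at 95.3 and 106 TPM and Pspc1 at 66.7 and 64.6 TPM. No neighbours in this order overlapped between replicates, and the heat control gave the same order. After 2 h of KCl, Neat1 lay at 32 and 20.5 TPM and had become the lowest of the 6, below Pspc1 at 73.3 and 77.8 TPM. In bulk RNA, fewer cells with a transcript and less of it per cell cannot be told apart. Neat1 was also no longer the highest at 42 °C for 8 h, with 166 and 197 TPM against 459 and 453 TPM for Nono, nor after 7 h of KCl. Neat1 and Nono overlapped at 44 °C and after 2 h of H2O2, and Sfpq and Neat1 after 7 h of KCl. Over the 5 group means of the H2O2/KCl experiment, Neat1 spanned 31.8-fold, Pspc1 3.39-fold, Malat1 2.69-fold, Sfpq 2.17-fold, Tardbp 1.95-fold and Nono 1.24-fold. Over the 3 group means of the heat experiment, Neat1 spanned 3.32-fold, Pspc1 2.15-fold, Malat1 1.7-fold, Tardbp 1.58-fold, Nono 1.27-fold and Sfpq 1.25-fold.

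**Figure D1:**
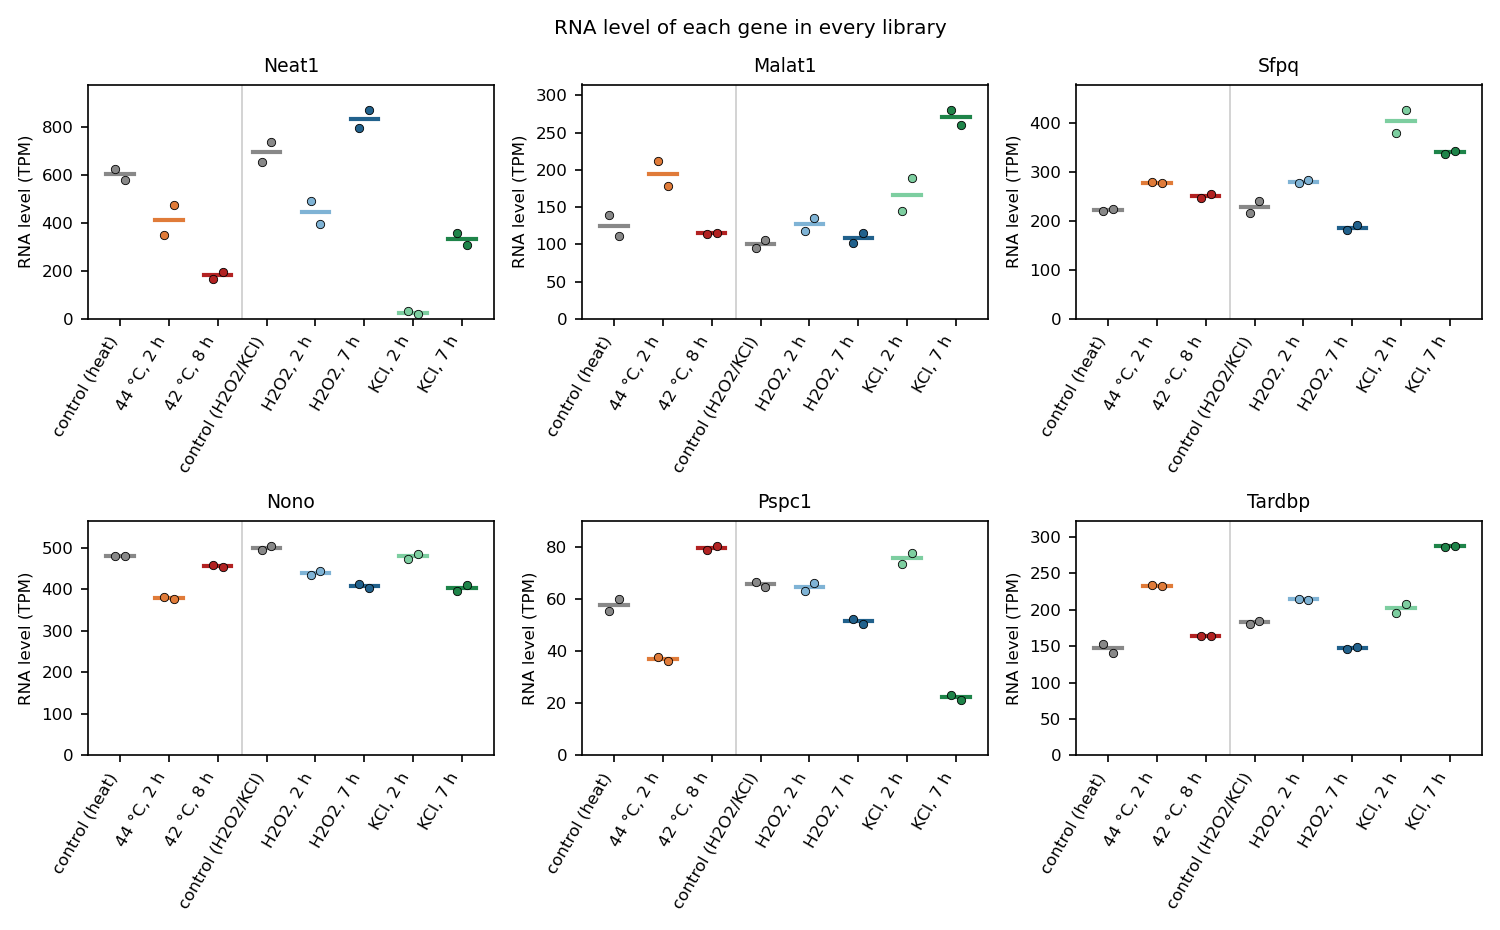
RNA level in TPM (linear axes from 0) of each gene in the 8 groups; points are the 2 libraries of a group, bars their mean, and the grey line separates the heat experiment from the H2O2/KCl experiment. Neat1 lay at 32 and 20.5 TPM after 2 h of KCl against 651 and 736 TPM in the control, while Nono lay at 474 and 485 TPM in the same KCl libraries.

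Neat1 RNA is described next by library, in counts scaled to normalized library size within an experiment (CPM). The control held 951 and 1064 CPM, and 2 h of KCl left 82.3 and 49.5 CPM. Both KCl 2 h libraries lay below every other library of the experiment, of which the lowest held 619.8 CPM. As a log2 fold change this was -3.93 (SE 0.18), which is 15.3-fold lower in CPM and 26.4-fold lower in TPM. It was -4.35 without KCl 2 h replicate 1 and -3.61 without replicate 2. After 7 h of KCl Neat1 held 698 and 619.8 CPM, a log2 fold change of 3.32 (SE 0.18) over 2 h and of -0.61 (SE 0.16) against the control. The 7 h libraries thus lay between the 2 h libraries and the control, with no overlap. On the log2(TPM + 1) scale the difference of 7 h of KCl from the control was -1.06.

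Under H2O2 Neat1 was lower at the early time and higher at the late one. At 2 h it held 774 and 634 CPM and at 7 h 1225 and 1353 CPM, against 951 and 1064 CPM in the control. The 2 h libraries lay below the control and the 7 h libraries above it. Against the control the log2 fold change was -0.52 (SE 0.16) at 2 h and 0.36 (SE 0.16) at 7 h. Neat1 rose from 2 h to 7 h of H2O2 by 0.87 (SE 0.16; edgeR quasi-likelihood test, adjusted p 0.000189). That error was estimated over all libraries of the experiment, and a fit of these 4 H2O2 libraries alone gave 0.87 (adjusted p 2.14e-06; 2.13e-14 to 0.00409 over the alternatives). At 7 h it was also higher with H2O2 than with KCl, by 0.97 (SE 0.16; adjusted p 6.11e-05), or by 0.95 with the 7 h libraries alone (adjusted p 6.31e-08; 1.47e-16 to 0.00183 over the alternatives).

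In the heat experiment, whose libraries did not give the KCl value by which the set was chosen, Neat1 RNA fell at both temperatures. Earlier results of these data were known when the members were chosen. The control held 898 and 833 CPM, 44 °C for 2 h left 509 and 717 CPM, and 42 °C for 8 h left 347 and 389 CPM. All 4 heated libraries lay below both controls, and the 42 °C libraries lay below the 44 °C libraries. On the log2 scale the change was -0.50 (SE 0.11; adjusted p 0.000818) at 44 °C and -1.24 (SE 0.11; adjusted p 2.85e-07) at 42 °C, and the heat treatments differed by -0.74 (SE 0.11; adjusted p 2.34e-05). The 44 °C value depended on its replicates: without replicate 1 it was -0.27 and without replicate 2 it was -0.77, and the adjusted p over the alternatives ran from 1.27e-29 to 0.0393. The difference between the heat treatments was -0.47 without 44 °C replicate 2 and -1.17 on log2(TPM + 1).

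**Figure D2:**
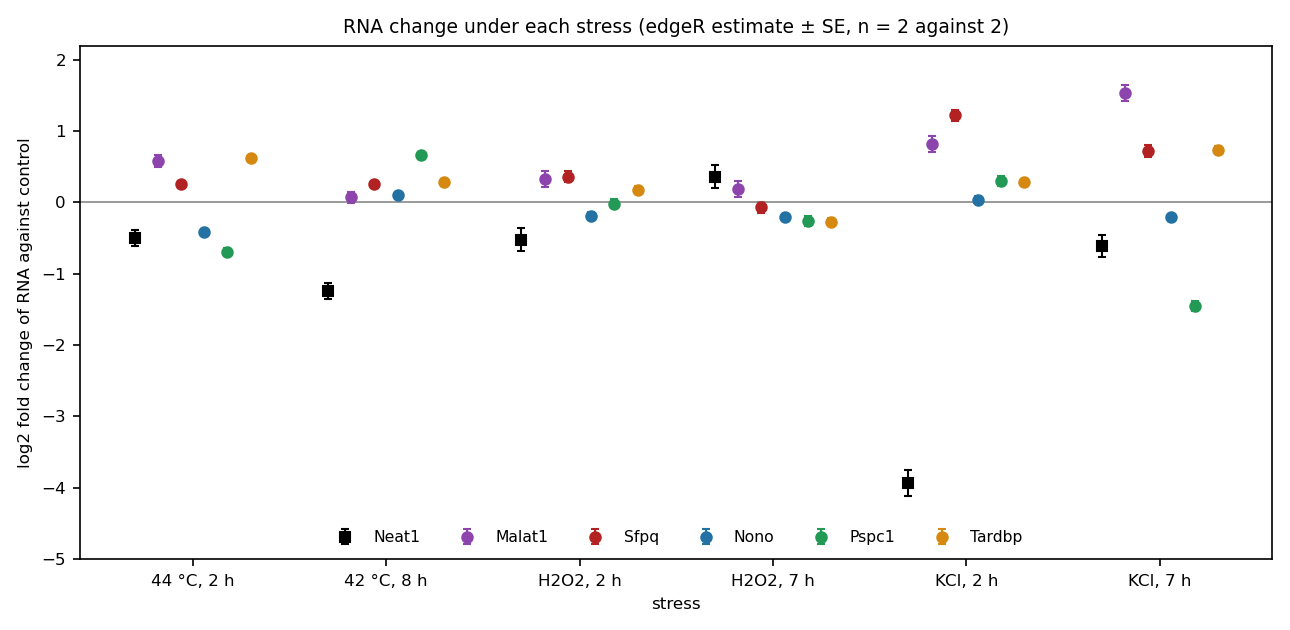
Log2 fold change of RNA against the control of the same experiment for the 6 genes under each stress; symbols are edgeR estimates, bars 1 standard error, squares Neat1. Neat1 stood at -3.93 after 2 h of KCl while Sfpq stood at 1.22, and Pspc1 stood at 0.66 at 42 °C and at -1.45 after 7 h of KCl.

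The drop of Neat1 was larger in TPM than in CPM. Within a library, a count divided by its TPM is proportional to the mean length of the transcripts to which the counts were assigned, weighted by their number. This ratio was put on a scale of bases with Malat1, whose 1 RefSeq transcript is 6983 bases long. The measure was chosen after the values had been seen, and it is given without a test. Neat1 had a mean length of 3176 and 3178 bases in the H2O2/KCl control and of 5248 and 4998 bases after 2 h of KCl. It stayed longer than the control after 7 h of KCl, at 3934 and 4163 bases, and was 3996 and 3832 bases at 42 °C against 3157 and 3158 bases in the heat control. The shifts after 2 h of H2O2 (3443 and 3515 bases) and at 44 °C (3371 and 3438 bases) were smaller, and that after 7 h of H2O2 (3182 and 3215 bases) was smaller still. In all 6 stress groups both libraries lay above both controls. The ratio of means was 1.613 after 2 h of KCl, where 2 of 6129 genes with a length in every library, Neat1 included, had a ratio at least as high, and 1.240 at 42 °C, where Neat1 had the highest. In those contrasts the middle 90% of genes lay between 0.975 and 1.033 and between 0.978 and 1.018.

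Counts could be split further only by an assumption. If all Neat1 reads came from transcripts of 2 lengths, the 20773 bases of the RefSeq span and the 3157 bases seen in the heat control, then 47% and 43.4% of the Neat1 counts after 2 h of KCl belonged to the long one. That share was 0.697% and 0.763% in the control, 23.3% and 28.5% after 7 h of KCl and 24.7% and 20.8% at 42 °C. By the same arithmetic, CPM assigned to the short transcript fell from 944 and 1056 in the control to 43.6 and 28 after 2 h of KCl. The long one was assigned 6.63 and 8.11 CPM in the control and 38.7 and 21.5 CPM after 2 h of KCl. After 7 h of KCl the long one stood at 163 and 177 CPM. The short length was set to the shortest mean length seen, so the control shares are near 0 by construction. A shorter assumed length would assign more of the control counts to the long span. Whether the counts of the long span rose or fell from the control is therefore not read from this split, and no fold is given. The source of the reads assigned to the long span was not tested.

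**Figure D3:**
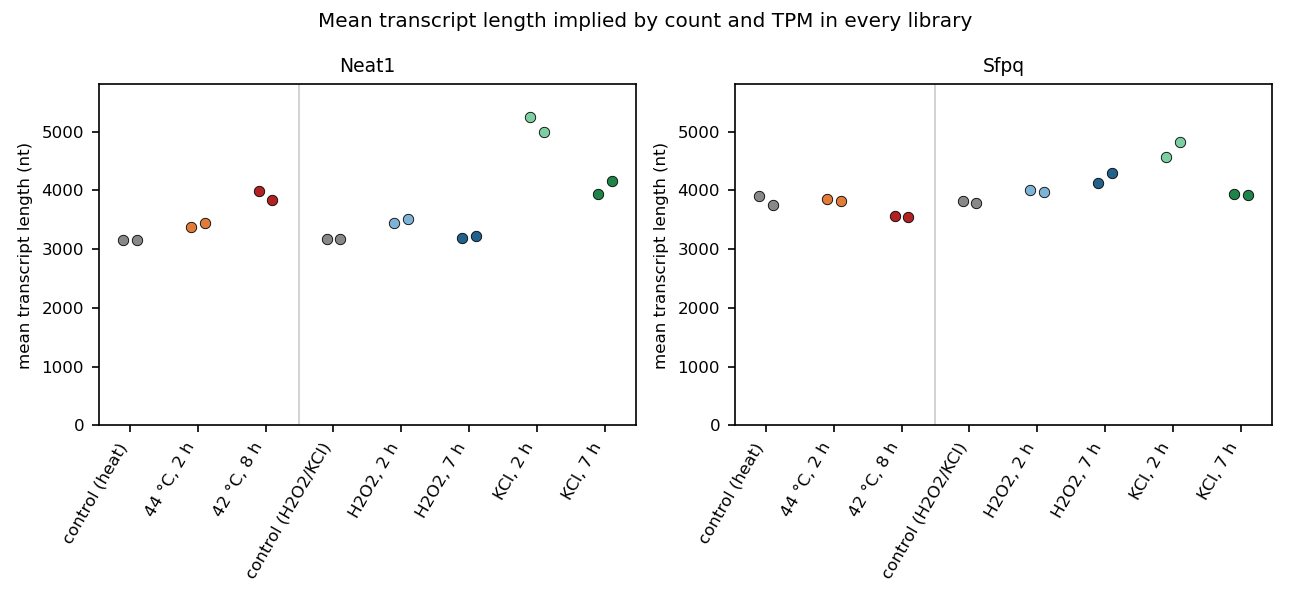
Mean transcript length in bases implied by count and TPM in every RNA library (axes from 0, points are libraries), scaled so that Malat1 has its RefSeq length. Neat1 lay at 3157 to 3178 bases in the 4 control libraries and at 5248 and 4998 bases after 2 h of KCl, and Sfpq reached 4569 and 4827 bases in the same libraries.

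Malat1 went the other way from its neighbour under KCl. It held 306 and 337 CPM in the control, 497 and 641 CPM after 2 h of KCl and 974 and 884 CPM after 7 h. The 3 groups did not overlap and were ordered by time. The log2 fold change was 0.82 (SE 0.11; adjusted p 2.06e-05) at 2 h and 1.53 (SE 0.11; adjusted p 2.78e-08) at 7 h, and 7 h exceeded 2 h by 0.71 (adjusted p 4.52e-05). With the drop of Neat1, the ratio of Neat1 to Malat1 in TPM went from 6.83 and 6.93 in the control to 0.221 and 0.108 after 2 h of KCl and to 1.27 and 1.18 after 7 h.

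H2O2 and heat moved Malat1 less. At 44 °C it held 638 and 549 CPM against 443 and 353 CPM in the heat control, a log2 fold change of 0.58 (SE 0.083; adjusted p 2.27e-05), and the groups did not overlap. At 42 °C it held 416 and 417 CPM, between the control libraries, with 0.07 (SE 0.083; adjusted p 0.51). The spread of that control decided the 42 °C value, which was 0.24 without control replicate 1 and -0.09 without control replicate 2 (adjusted p from 0.00875 to 0.718 over the alternatives). With H2O2 for 2 h it held 378 and 431 CPM, above the control, with 0.33 (SE 0.11; adjusted p 0.0192). That call was lost without H2O2 2 h replicate 2 (0.23) and without control replicate 1 (0.26), with adjusted p from 0.000386 to 0.17 over the alternatives. With H2O2 for 7 h it held 344 and 392 CPM, with 0.19 (SE 0.11; adjusted p 0.127), and it was called with no filter on low counts (adjusted p 0.043; 0.043 to 0.552 over the alternatives).

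Malat1 and Sfpq were the 2 of the 5 tested genes with the largest rise after 2 h of KCl, and their promoters are shown for that reason, as the 250 bases, on the strand of the gene, before the transcript start that the RefSeq promoter table uses. For Sfpq that start lies inside the gene span given above. Capitals mark matches to TGACGT, the short form of the cyclic AMP response element, in Malat1 (chr19:5802673-5802922, minus strand), and to the box CCAAT and to TGGAAA, the core bound by the NFAT family and by the tonicity factor NFAT5, in Sfpq (chr4:127021051-127021300, plus strand). Either strand was searched.
Malat1: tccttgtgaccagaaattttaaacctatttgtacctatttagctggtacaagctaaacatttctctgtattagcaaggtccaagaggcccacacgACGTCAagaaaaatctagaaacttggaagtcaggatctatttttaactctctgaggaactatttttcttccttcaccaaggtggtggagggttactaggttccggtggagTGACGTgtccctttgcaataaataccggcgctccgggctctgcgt
Sfpq: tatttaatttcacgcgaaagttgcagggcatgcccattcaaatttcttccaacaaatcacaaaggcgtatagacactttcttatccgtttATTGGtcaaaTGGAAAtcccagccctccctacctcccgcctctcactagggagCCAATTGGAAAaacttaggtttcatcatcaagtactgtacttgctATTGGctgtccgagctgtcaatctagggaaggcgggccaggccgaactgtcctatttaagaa

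The Malat1 window held 2 matches to TGACGT, with first bases 45 and 155 bases before the start. Of 27025 RefSeq promoters of 300 bases (250 before and 50 after that start), 7.64% held TGACGT and 2.28% held it at least 2 times. The Sfpq window held TGGAAA 2 times, 150 and 102 bases before the start, and CCAAT 4 times, of which 2 overlap each other and 1 of these also overlaps the nearer TGGAAA. Over all promoters, TGGAAA was in 21.5% (at least 2 times in 3.12%) and CCAAT in 37.9% (at least 3 times in 3.56%). Nono held CCAAT 2 times, Pspc1 1 time, and Tardbp TGGAAA 1 time. TGGAAA had no match in Malat1, Nono and Pspc1, and CCAAT had none in Malat1 and Tardbp. TGACGT had no match in Sfpq, Nono, Pspc1 and Tardbp. GAANNTTC, a unit of the heat shock element found in 7.95% of all promoters, and the palindrome TGACGTCA, found in 1.88%, had no match in the windows of Malat1, Sfpq, Nono, Pspc1 and Tardbp. Such matches describe the letters of these windows and do not show binding.

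Sfpq, a DBHS protein that paraspeckles need to form, had its largest change after 2 h of KCl. Its RNA held 379.6 and 417 CPM in the control and 852 and 999.8 CPM after 2 h of KCl, then 658 and 654 CPM after 7 h. The 2 h libraries were the highest, the 7 h libraries lay between them and the control, and no groups overlapped. Against the control Sfpq rose by 1.22 on the log2 scale (SE 0.079; adjusted p 1.81e-08) at 2 h and by 0.72 (SE 0.079; adjusted p 1.76e-06) at 7 h. Between the times it fell by 0.50 (adjusted p 5.95e-05), or by 0.25 on log2(TPM + 1). Over the alternatives the rise ran from 0.82 to 1.33 at 2 h and from 0.57 to 0.79 at 7 h. In TPM, Sfpq stood at 217 and 242 in the control and at 381 and 428 after 2 h of KCl. The same libraries in which Neat1 was lowest thus held the highest Sfpq.

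Sfpq also changed in mean transcript length. It was 3810.4 and 3788 bases in the control and 4569 and 4827 bases after 2 h of KCl, a ratio of 1.237 that 12 of 6129 genes, Sfpq included, reached or passed. With H2O2 for 7 h it was 4130.2 and 4293 bases (ratio 1.108, reached by 11 genes, Sfpq included), and at 42 °C it was 3559 and 3546 bases against 3907 and 3746 bases in the heat control (ratio 0.928). RefSeq lists 7 Sfpq transcripts, 2 of them curated. Nono showed no such shift and stayed between 2403 and 2415 bases in all RNA libraries.

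The other stresses moved Sfpq by less. It held 392 and 384 CPM in the heat control, 466 CPM in each library at 44 °C and 463 and 469 CPM at 42 °C, with all heated libraries above the control. The log2 fold change was 0.26 (SE 0.038) at each heat treatment, with adjusted p of 2.1e-05 and 3.3e-05. With H2O2 for 2 h it held 510 and 516 CPM, above the control, with 0.36 (SE 0.079; adjusted p 0.0014). After 7 h of H2O2 it held 361 and 398 CPM, which overlapped the control, with -0.07 (SE 0.079; adjusted p 0.434) in counts and -0.30 on log2(TPM + 1) (adjusted p from 0.00352 to 0.978 over the alternatives). Sfpq fell by 0.44 from 2 h to 7 h of H2O2 (adjusted p 0.000185).

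Nono, a partner of Sfpq in DBHS dimers, varied least of the 6 over the group means of the H2O2/KCl experiment. It held 547 and 551 CPM in the control, 559 and 567 CPM after 2 h of KCl and 472 and 478 CPM after 7 h. The 2 h libraries were barely above the control and the 7 h libraries below it. The log2 fold change was 0.04 (SE 0.053; adjusted p 0.598) at 2 h and -0.21 (SE 0.053; adjusted p 0.0031) at 7 h, and the fall between the times was 0.24 (adjusted p 0.001). H2O2 lowered it by a like amount, to 478 and 486 CPM at 2 h and 479 and 468 CPM at 7 h, with -0.19 (adjusted p 0.00858) and -0.21 (adjusted p 0.00248). At 44 °C it held 395 and 399 CPM against 528 and 526 CPM in the heat control, a fall by 0.41 (SE 0.038; adjusted p 3e-07). At 42 °C it held 577 and 561 CPM, with 0.11 (SE 0.038; adjusted p 0.0181). The 42 °C call was lost without 42 °C replicate 1 and without either control replicate (0.09, 0.12 and 0.11), and on log2(TPM + 1) the value was -0.08, with adjusted p from 0.00397 to 0.122 over the alternatives.

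Pspc1, the third DBHS protein, was the lowest of the 6 genes in most groups and changed in opposite directions between treatments. It held 69.4 and 67.2 CPM in the control, 81.1 and 86.6 CPM after 2 h of KCl and 26.4 and 23.7 CPM after 7 h. Both 2 h libraries lay above the control, and both 7 h libraries far below it. The log2 fold change was 0.30 (SE 0.065; adjusted p 0.00158) at 2 h and -1.45 (SE 0.071; adjusted p 8.11e-10) at 7 h, and the difference between the times was -1.74 (SE 0.072; adjusted p 1.67e-10).

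Heat also moved Pspc1 in opposite directions. It held 57.7 and 62.3 CPM in the heat control, 37.5 and 36.7 CPM at 44 °C and 94.4 and 95.3 CPM at 42 °C. The groups did not overlap, with 44 °C below and 42 °C above the control. Against the control the change was -0.69 (SE 0.051; adjusted p 2.77e-08) at 44 °C and 0.66 (SE 0.048; adjusted p 4.07e-08) at 42 °C, and the treatments differed by 1.35 (SE 0.051; adjusted p 2.16e-11). Under H2O2 it held 65.9 and 68.8 CPM at 2 h, overlapping the control, with -0.02 (SE 0.065; adjusted p 0.806), and 58.5 and 55.6 CPM at 7 h, with -0.26 (SE 0.066; adjusted p 0.0029). The fall of 0.24 from 2 h to 7 h of H2O2 (adjusted p 0.00528) was 0.20 and no longer called without H2O2 7 h replicate 2, with adjusted p from 0.000807 to 0.0575 over the alternatives.

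Tardbp rose under heat and KCl and fell late under H2O2. It held 424 and 433 CPM in the control, 509 and 530.2 CPM after 2 h of KCl and 715 and 707 CPM after 7 h, in groups that did not overlap. Tardbp rose by 0.28 on the log2 scale (SE 0.055; adjusted p 0.000692) at 2 h and by 0.73 (SE 0.055; adjusted p 4.55e-08) at 7 h, and 7 h exceeded 2 h by 0.45 (adjusted p 5.19e-06). At 44 °C it held 516 and 525 CPM and at 42 °C 419 and 412 CPM, against 350.1 and 328 CPM in the heat control. Both heated groups lay above their control, with 0.62 (SE 0.042; adjusted p 1.11e-08) and 0.29 (SE 0.042; adjusted p 2.97e-05), and 42 °C lay below 44 °C by 0.33 (a log2 fold change of -0.33, adjusted p 5.93e-06).

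Under H2O2, Tardbp at 2 h held 488 and 484 CPM, above the control, with a log2 fold change of 0.18 (SE 0.055; adjusted p 0.0126). This call was lost without H2O2 2 h replicate 1 (0.12), H2O2 2 h replicate 2 (0.19) or control replicate 1 (0.16), with adjusted p from 0.00284 to 0.213 over the alternatives. After 7 h it held 347 and 361 CPM, below the control, with -0.27 (SE 0.055; adjusted p 0.000484), a fall by 0.46 from 2 h (adjusted p 4.1e-06). On log2(TPM + 1) the rise at 42 °C was 0.16 and that after 2 h of KCl 0.14.

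The counts of called genes have to be read against a background in which most of the transcriptome moved. At 44 °C all 6 genes were called, 3 higher and 3 lower, where 35.4% of all genes tested were called higher and 35.7% lower. At 42 °C 4 were called higher and 1 lower of 6 (31.7% and 31.9% of all genes; on log2(TPM + 1) 1945 genes were higher and 6287 lower). For H2O2 and KCl the count is over 5 genes, without Neat1. After 2 h of H2O2 3 were higher and 1 lower (27.3% and 26.5% of all genes), and after 7 h none was higher and 3 were lower (39.4% and 31.1%). For 2 h of KCl 4 were higher and none lower (27.2% and 27%; on log2(TPM + 1) 2567 genes were higher and 4540 lower), and after 7 h 3 were higher and 2 lower (37.2% and 31.6%). With 5 or 6 genes a comparison, nothing is read from these counts beyond the values of the genes named above.

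Direct comparisons between treatments gave like counts. Between 42 °C and 44 °C 5 of 6 genes differed, where 75.1% of all genes did. Between the H2O2 times 4 of 6 differed (73.4% of all genes), and between the KCl times 5 of 5 (68.8%). Between H2O2 and KCl 4 of 5 differed at 2 h (51.3%) and 5 of 6 at 7 h (78.4%). At 7 h H2O2 was lower than KCl for Malat1 (-1.34), Sfpq (-0.79) and Tardbp (0.499 times the KCl level), with adjusted p of 4.51e-08, 3.86e-07 and 6.05e-10, and higher for Pspc1 (1.19, adjusted p 1.68e-09) and Neat1. At 2 h it was lower for Malat1 (-0.49, adjusted p 0.00178), Sfpq (-0.85, adjusted p 7.74e-07), Nono (-0.22, adjusted p 0.00302) and Pspc1 (-0.32, adjusted p 0.00114). On log2(TPM + 1) the 2 h difference of Sfpq was -0.52 and that of Nono -0.13, and without KCl 2 h replicate 2 that of Malat1 was -0.30.

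Footprints of the 4 protein-coding genes were compared in the same way. Those of Pspc1 fell late in KCl, as its RNA did, from 77.3 and 70.3 CPM in the control to 28.9 and 30.9 CPM after 7 h of KCl. Both KCl libraries lay far below both controls. Footprints changed by -1.30 on the log2 scale (SE 0.19; adjusted p 0.000604), beside -1.45 for RNA. Sfpq footprints rose from 641 and 677 CPM to 973 and 1117 CPM in the same comparison, with 0.66 (SE 0.17; adjusted p 0.014). Tardbp footprints rose from 255 and 243 CPM to 366 and 408 CPM, with 0.64 (SE 0.17; adjusted p 0.0169). Neither gene overlapped with its control, whereas Nono, with 658 and 705 CPM against 613 and 734 CPM, did (0.02, SE 0.17; adjusted p 0.958). So 3 of 4 genes were called, where 20.4% of all genes tested were. The Pspc1 call held in all 10 alternatives. Those of Sfpq and Tardbp were lost without either control replicate or without KCl 7 h replicate 2, leaving 1 called gene, with adjusted p from 0.00162 to 0.0966 and from 0.00468 to 0.112 over the alternatives.

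After 2 h of KCl none of the 4 genes was called in footprints with edgeR (6.86% of all genes were), while 2 had an unadjusted p under 0.05. Sfpq footprints stood at 948 and 972 CPM, above both controls, with 0.54 (SE 0.17; adjusted p 0.0721). With DESeq2 1 gene, Sfpq, was called (0.58), and its adjusted p ran from 0.0225 to 0.256 over the alternatives. Nono stood at 870.2 and 875 CPM, also above its controls, with 0.37 (SE 0.17; adjusted p 0.237). Pspc1 (81.2 and 87.3 CPM) and Tardbp (271 and 281 CPM) changed by 0.19 and 0.15, with adjusted p of 0.621 and 0.686.

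After 7 h of H2O2 all 4 genes had lower footprints than both controls. Pspc1 stood at 47.5 and 45.5 CPM (-0.67, SE 0.18; adjusted p 0.0138) and Nono at 457 and 490.5 CPM (-0.51, SE 0.17; adjusted p 0.0407). Sfpq stood at 509.9 and 495 CPM (-0.39; adjusted p 0.0977) and Tardbp at 184 and 190.1 CPM (-0.41; adjusted p 0.0843), short of the threshold. Thus 2 of 4 were called, where 27.7% of all genes were. Both calls were lost on log2(TPM + 1), without H2O2 7 h replicate 1 and without replicate 2. That of Pspc1 was also lost without control replicate 1 and that of Nono without control replicate 2, with adjusted p from 0.0139 to 0.0809 for Pspc1 and from 0.0261 to 0.267 for Nono over the alternatives. For 2 h of H2O2 none of the 4 was called by edgeR, DESeq2 or limma on log2(TPM + 1), none had an unadjusted p under 0.05, and 1.91% of all genes were called by edgeR. The fold changes ran from -0.17 (Pspc1) to 0.22 (Tardbp).

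**Figure D4:**
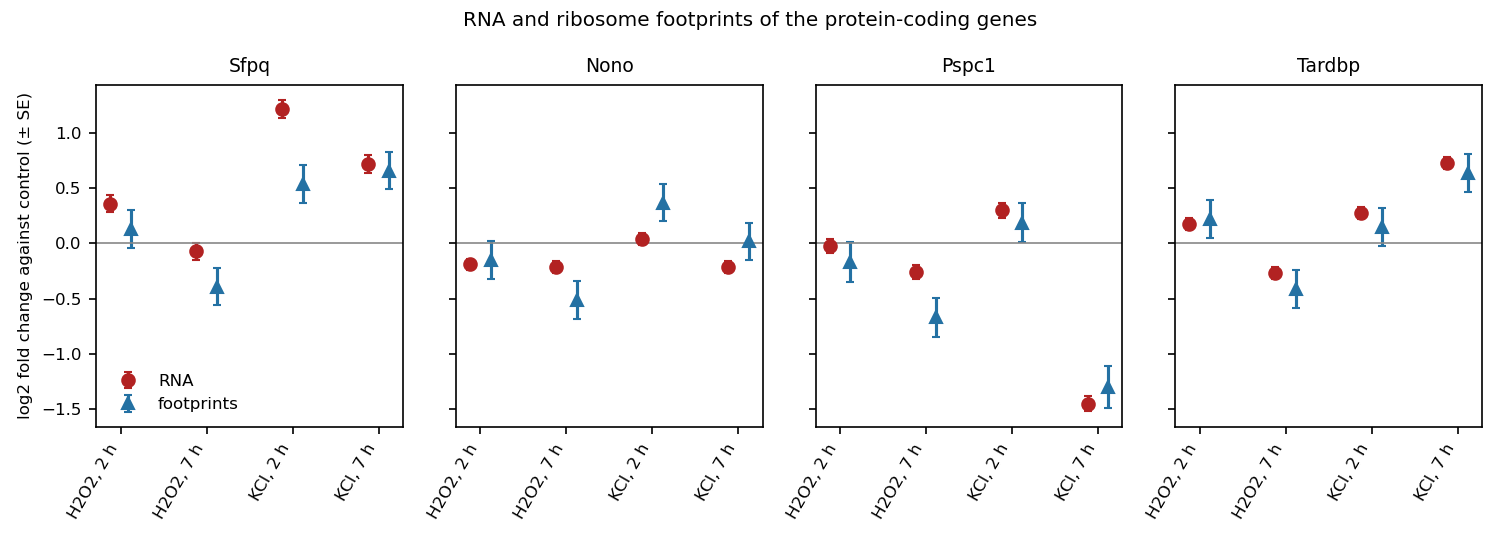
Log2 fold change against the control for RNA (circles) and ribosome footprints (triangles) of the 4 protein-coding genes after H2O2 and KCl; symbols are edgeR estimates and bars 1 standard error. Pspc1 stood at -1.45 for RNA and -1.30 for footprints after 7 h of KCl, whereas Sfpq after 2 h of KCl stood at 1.22 for RNA and 0.54 for footprints.

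Translational efficiency, footprints relative to RNA, was tested as an interaction of library kind and stress. After 2 h of KCl Sfpq footprints rose less than Sfpq RNA, an efficiency change of -0.68 (SE 0.16; adjusted p 0.00987), and it was the only one of 4 genes called, where 12.8% of all genes were. Limma voom also called it, but the call was lost without RNA control replicate 1 (-0.61) or without RNA KCl 2 h replicate 2 (-0.56), with adjusted p from 0.00654 to 0.0617 over the alternatives. Efficiency was fitted on counts, and after 2 h of KCl the mean Sfpq transcript length in the RNA libraries had also shifted. It was 3810.4 and 3788 bases in the control and 4569 and 4827 bases after 2 h. The part of this shift in the efficiency change was not tested. In the other 3 comparisons of efficiency edgeR and limma voom called none of the 4 genes. Of all genes 11.4% were called after 2 h of H2O2, 9.27% after 7 h of H2O2 and 5.57% after 7 h of KCl. The number with an unadjusted p under 0.05 was 0, 1 (Pspc1, -0.41; adjusted p 0.102) and 0. The late fall of Pspc1 in KCl left its efficiency at 0.18 (SE 0.16; adjusted p 0.582), an interval of 2 SE from -0.14 to 0.50. Simulated footprints for 2 h of KCl, with 200 changed genes, gave back 24% of the genes changed by 1 on the log2 scale, and efficiency 32%. Changes of that size could thus be missed in that setting. Recovery in the other comparisons of footprints and efficiency was not simulated.

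The other proteins of paraspeckles were examined as a list of 25, chosen with earlier results of these data known. Called genes of the list went both ways in every stress. The shares of all genes called higher and lower are in parentheses after the counts. At 44 °C 10 rose and 12 fell (35.4% and 35.7%), with a median of 0. The largest changes were in Akap8l (0.75, SE 0.064), Rbmx (-0.74, SE 0.058) and Rbm12 (0.67, SE 0.043). At 42 °C 16 rose and 3 fell (31.7% and 31.9%), led by the splicing regulators Hnrnpa1 (0.52) and Hnrnph1 (0.50). The median was 0.19 where that of all genes was -0.014. On log2(TPM + 1) that median was 0, where all genes had -0.16, and 13 of the 25 were called. After 2 h of H2O2 7 rose and 5 fell (27.3% and 26.5%), with a median of 0.06. At 7 h 4 rose and 7 fell (39.4% and 31.1%), with a median of -0.05. Taf15, an RNA-binding protein, stood out at 7 h with 1.11 (SE 0.10; adjusted p 1.92e-07). After 2 h of KCl 10 rose and 6 fell (27.2% and 27%), with a median of 0.03. Rbm4b stood at -1.08 and Rbm12 at -0.88. After 7 h of KCl 8 rose and 8 fell (37.2% and 31.6%), again with a median of 0.03. Rbmx then stood at -0.81, Rbm12 at 0.73 and Hnrnpa1 at -0.72. On log2(TPM + 1) the KCl medians were -0.08 and -0.05. Rbm12 passed the test in opposite directions at the KCl times.

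Of 12 proteins of nuclear speckles, where Malat1 resides, 8 rose, 3 fell and 1 was not called after 7 h of KCl, where 37.2% of all genes tested were called higher, with a median of 0.38 beside 0.039 for all genes, or 0.21 beside -0.03 on log2(TPM + 1). The list was led by Pnisr (1.32, SE 0.066), Srsf11 (0.89, SE 0.069) and the kinase Prpf4b (0.85, SE 0.074), with Pnisr at -0.50 after 2 h. The other stresses are given with the shares of all genes called higher and lower. At 44 °C 6 rose and 3 fell (35.4% and 35.7%), and at 42 °C 7 rose and 3 fell (31.7% and 31.9%). After 2 h of H2O2 6 rose and none fell (27.3% and 26.5%), and after 7 h 2 rose and 4 fell (39.4% and 31.1%). After 2 h of KCl 5 rose and 2 fell (27.2% and 27%).

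Other long noncoding RNAs were taken as a list of 19, of which 17 were in the RNA tables and 16 (heat) or 15 (H2O2 and KCl) passed the filter on low counts. Of all genes tested, 35.4% were called higher and 35.7% lower at 44 °C, and 31.7% and 31.9% at 42 °C. The shares were 27.3% and 26.5% after 2 h of H2O2 and 39.4% and 31.1% after 7 h. For KCl they were 27.2% and 27% at 2 h and 37.2% and 31.6% at 7 h. These shares are the background for the counts of these RNAs. After 2 h of KCl, where Neat1 was lowest, 1 rose, 4 fell and 10 were not called, with Ftx at -1.08 (SE 0.13), Firre at -0.72 (SE 0.10) and Dnm3os at -0.41 (SE 0.097) as the largest falls that passed the test and Snhg1 at 0.41 (SE 0.083) as the gene that rose. Jpx, at -0.73 (SE 0.50), did not pass it. After 7 h of KCl 3 rose and 6 fell, with Jpx at -2.71 (SE 0.69), the imprinted RNA H19 at -1.81 (SE 0.096) and Kcnq1ot1 at 1.10 (SE 0.15). At 42 °C 5 rose and 4 fell, with Dnm3os at -4.40 (SE 0.11) and the snoRNA host Snhg12 at 1.58 (SE 0.093). At 44 °C 4 rose and 6 fell, with H19 at -1.55 (SE 0.061) and Snhg3 at 1.22 (SE 0.081). After H2O2 7 rose and 2 fell at 2 h, with Dnm3os at -2.15 and Snhg1 at 1.49, and 8 rose and 3 fell at 7 h, with Rian at 2.42, Dnm3os at -2.40 and Pvt1 at 2.08.

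The genes whose 6 log2 fold changes of RNA were most like those of each gene were sought among 9240 genes, by the root-mean-square difference. For Neat1 these were Jrk (0.374), Zfp738 (0.461) and Zfp111 (0.594). They stood at -3.58, -3.21 and -3.62 after 2 h of KCl, beside -3.93 for Neat1. For Malat1 they were Rc3h2 (0.11), Sbno1 (0.113) and Prune2 (0.121), for Sfpq Arid4b (0.151), Lancl3 (0.166) and Ptpn12 (0.175), and for Nono Psmd13 (0.0554), Atp5g3 (0.0604) and Commd1 (0.0722). For Pspc1 they were Exoc6 (0.258), Ube3c (0.268) and Gnb4 (0.271), and for Tardbp Baz1b (0.11), Ankhd1 (0.126) and Trim33 (0.141). Among the 6 genes themselves Malat1 and Sfpq were closest, at 0.412, and Sfpq and Tardbp lay 0.425 apart. Many other genes were nearer: Sfpq ranked 233 of 9239 from Malat1, and Malat1 ranked 431 from Sfpq. Neat1 was 1.74 or more from each of the others. The 6 values include that after 2 h of KCl, by which the set was chosen, so the distance of Neat1 from the others rests in part on it. The low values of Jrk, Zfp738 and Zfp111 at that time likewise follow from how these genes were picked. The comparisons within an experiment also share their controls, so all these distances are descriptions.

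Readthrough, transcription that runs on past the end of a gene, was deposited as calls on 6399 pairs of neighbouring genes. None of these pairs held Neat1, and 7 held another of the 6 genes. Downstream transcripts were called in 18 of the 112 combinations of those pairs with RNA libraries, or 16.1%, beside 28.5% over all pairs. Reading into the downstream gene was called in 0 of the 112, beside 1415 such calls over all 6399 pairs in 16 libraries. Such calls were rare over all pairs, so nothing is read from the 0. These are the authors' calls, with no test. Pspc1, followed by Cenpj, had a downstream call in 4 of 16 libraries, Sfpq, followed by Zmym6, in 3, and Nono, followed by Itgb1bp2, in 2. The deposited read-in estimate for Itgb1bp2 had a median of 1.25 and reached 3.13, at 0.12 to 1.67 TPM of that gene, where the authors called no read-in.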

How the data were processed

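PolyA-selected RNA (16 libraries) and ribosome footprints (10 libraries) were analysed, grouped by the labels. The authors deposited expected counts per gene, whole numbers as deposited, so rounding changed nothing, and TPM values, which divide by transcript length. Calls and estimates of transcription past gene ends were also deposited by the authors, the read-in estimate as a ratio without its formula. The submitters' processing notes name STAR, RSEM, Bowtie and mm10, without their roles. Sources used here give no strand setting for the counting. Another 12 columns, which no label could be tied to, were left aside.

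Counts were tested with edgeR 4.0.16 (R 4.3.3; quasi-likelihood F test, TMM, filterByExpr, Benjamini-Hochberg over all genes tested, threshold 0.05), with 1 fit for heat RNA, 1 for H2O2/KCl RNA and 1 for footprints. Translational efficiency was the interaction of library kind and stress in a fit over 20 libraries. Alternatives were DESeq2 1.42.0, RLE factors, no filter, only the groups compared, the replicate number as a block, limma 3.58.1 on log2(TPM + 1), limma voom for efficiency, and each library left out. With 1 library left in a group, that library was taken to vary like the other groups. On simulated counts with 200 changed genes, 92% of genes changed by 0.5 (log2) were recovered for RNA at 44 °C, among 12425 genes, with a false share of 8.57%, and 84% for RNA after 2 h of KCl, among 12059 genes, with 6.63%. For footprints after 2 h of KCl (10016 genes) the false share was 11.1%, and for efficiency (10238 genes) 16.7%.

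The members and lists were chosen with earlier results of these data known. Named genes were the 6 members, up to 3 called genes of largest change per list and stress, the 3 most similar genes per member (average log2 CPM of at least 3) and genes paired with a member. The values of 1 such pair are not reported here. Lengths used genes with at least 500 counts and 5 TPM in every RNA library.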

Additional observations from a re-analysis of the deposited data

Results flagged for a closer look

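The direct comparison of treatment times or temperatures within a stress differed, by edgeR's quasi-likelihood test, for several of the genes. Of heat at 42 °C for 8 h against 44 °C for 2 h, the log2 difference in RNA was -0.74 for Neat1, -0.51 for Malat1, 0.52 for Nono, 1.35 for Pspc1 and -0.33 for Tardbp, and Pspc1 moved in opposite directions against the control. Of H2O2 at 7 h against 2 h, it was 0.87 for Neat1, -0.44 for Sfpq, -0.24 for Pspc1 and -0.46 for Tardbp. Of KCl at 7 h against 2 h, it was 0.71 for Malat1, -0.50 for Sfpq, -0.24 for Nono, -1.74 for Pspc1 and 0.45 for Tardbp. Temperature and duration changed together in the heat treatments and cannot be told apart. Groups of 2 libraries were not examined for outlying libraries.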

How the results depend on the processing

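Most values kept direction and side of the threshold: 556 of the alternatives that kept all libraries and 418 of those that left out 1 library gave the same call or a like value. The number of called genes among the members moved to 0 (from 2) for footprints after 7 h of H2O2 on log2(TPM + 1), and to 1 (from 0) for footprints after 2 h of KCl with DESeq2. It also went from 5 to 4 at 42 °C and from 5 to 6 between the heat treatments on log2(TPM + 1), and from 3 to 4 after 7 h of H2O2 on log2(TPM + 1) and with no filter. With 1 library left out it ran from 4 to 5 for 42 °C, from 2 to 4 for 2 h of H2O2, from 3 to 4 between the H2O2 times, from 0 to 1 for footprints after 7 h of H2O2, from 1 to 3 for footprints after 7 h of KCl and from 0 to 1 for efficiency after 2 h of KCl; the other comparisons kept their number. Small values changed sign on log2(TPM + 1): Malat1 at 42 °C to -0.11, Nono at 42 °C to -0.08, after 2 h of KCl to -0.06, for H2O2 against KCl at 7 h to 0.01 and in footprints after 7 h of KCl to -0.01, and Tardbp for H2O2 against KCl at 2 h to 0.09. With 1 library left out values ran through 0 for Malat1 at 42 °C (-0.09 to 0.24), for Nono for H2O2 against KCl at 7 h (-0.04 to 0.01) and in footprints after 7 h of KCl (-0.10 to 0.15), and for efficiency after 7 h of KCl in Sfpq (-0.13 to 0.08) and Tardbp (-0.14 to 0.02). The cause was not tested. TPM, which makes no correction for library composition, moved the median of all genes to -0.16 at 42 °C, to -0.20 between the heat treatments and to 0.11 for footprints after 7 h of H2O2, and calls at 42 °C were 1945 higher and 6287 lower on it. Neat1 after 2 h of KCl was -4.70 on log2(TPM + 1), and its span over groups was 21.2-fold in counts divided by raw library totals. Replicate numbers were not taken to pair the samples, since not every pair of groups passed 0.1: same-numbered deviations correlated at -0.025 to 0.12 in heat RNA (1 of 3 pairs above 0.1), at -0.053 to 0.054 in H2O2/KCl RNA (0 of 10) and at -0.38 to 0.42 in footprints (6 of 10). The replicate block changed no number of called members, with 7317 genes called after 2 h of KCl against 7185. Over all genes, calls depended most on the libraries for footprints: 201 after 2 h of H2O2 became 315 with no filter, 45 on log2(TPM + 1), 27 with only the groups compared and 37 to 145 with 1 library left out. For 7 h of H2O2 2925 became 1681 to 2245 with 1 library left out, for 2 h of KCl 723 became 477 on log2(TPM + 1), 463 with only the groups compared and 211 to 421 with 1 library left out, and for 7 h of KCl 2148 became 996 to 1381. Efficiency calls of 1199, 971, 1337 and 584 (H2O2 2 h and 7 h, KCl 2 h and 7 h) became 661, 644, 733 and 221 with limma voom, and 586 to 1887, 453 to 915, 775 to 1305 and 230 to 534 with 1 library left out; with only the groups compared 1199 became 600.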
